A study of Mus musculus with 6 samples.

Results

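Translation initiation and elongation factors are the proteins that bring ribosomes to the start codon of an mRNA and move them along it. The genes described here are the 61 rows, of 13605 named genes in the deposited count table, whose names begin with Eif or Eef, leaving out the 4 Eif2ak genes, which encode kinases that act on eIF2. Of the 61 genes, 49 have Eif names, 12 have Eef names and 14 encode subunits of eIF3. All 61 passed the filter on low counts and were among the 12789 genes tested. The RNA came from mouse liver regulatory T cells (Tregs), a CD4 lineage that holds immune responses in check, at 14 months of age. There were 3 libraries labelled Altre KO and 3 labelled Altre WT, with no treatment in either genotype. The labels do not say how or in which cells Altre was deleted, how the cells were sorted, or whether each library is a separate animal. The p-values therefore measure only how much these samples vary, and that variation may be technical. Altre itself was not analysed here, so its level gives no check of the labels.

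Total counts per library ranged from 25490761 to 30870786 in KO and from 25315425 to 28349682 in WT. Foxp3, the lineage-defining transcription factor of Tregs, averaged 108 ± 32.5 CPM (counts scaled to 1000000 per library) in KO and 79.2 ± 7.91 CPM in WT (SD, n = 3 each), and all 12 markers of Tregs and T cells were measured. Their summed level was 9166 to 10569 CPM in KO and 9203 to 11619 CPM in WT. Of these markers, 7 had a higher mean in KO and 5 a lower one. Il2ra, Lrrc32 and Cd4 were higher in all 3 KO libraries than in any WT library (5.6% of all tested genes). By edgeR their log2 fold changes were 0.51, 1.20 and 0.44, with no adjusted p under 0.05. In the authors' deposited table their adjusted p was 0.00384, 3.25e-05 and 0.000354. Of 15 measured macrophage and Kupffer cell markers, 14 had a higher mean in KO, with a median log2 fold change of 0.80 over the 15. Their summed level was 247 to 367 CPM in KO and 203 to 232 CPM in WT, and Vsig4 and Timd4 were at 0 in at least 1 library. For 6 of the 15, every KO library lay above every WT library (5.6% of all tested genes). The marker with a lower mean was C1qc (-1.21, overlapping groups). By edgeR 0 of the 15 had an adjusted p under 0.05. In the authors' deposited table the adjusted p was 0.00598 for C1qb and 0.0438 for Slc40a1, both higher in KO, and 0.0313 for C1qc. The 4 measured of 8 liver endothelial markers summed to 166 to 179 CPM in KO and 129 to 153 CPM in WT. Most of that was Pecam1 (149 ± 9.16 CPM in KO and 110 ± 14.8 CPM in WT), while Dnase1l3 had 21.6 ± 4.56 CPM in KO and 27.9 ± 4.54 CPM in WT (SD, n = 3 each). Ighm, the immunoglobulin mu heavy chain of B cells, averaged 2788 ± 417 CPM in KO and 3027 ± 576 CPM in WT (SD, n = 3 each). Markers of CD8 T and NK cells summed to 149 to 177 CPM in KO and 112 to 294 CPM in WT. Erythroid markers summed to 76.2 to 84.9 CPM in KO and 69.7 to 232 CPM in WT, and the 1 hepatocyte marker measured, Trf, ranged from 1.06 to 2.55 CPM in KO and 0.702 to 1.07 CPM in WT. The part of these cells in the values of the translation factors was not tested.

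Initiation starts when eIF2 carries the initiator tRNA to the small ribosomal subunit, where eIF1, eIF1A, eIF5 and the large eIF3 complex gather with it. The eIF4 proteins recognise the mRNA cap and unwind the leader, the complex scans to the start codon, and eIF5B helps the large subunit to join. During elongation, eEF1A delivers aminoacyl-tRNAs and eEF2 moves the ribosome codon by codon. In T cells this machinery is tied to activation and nutrient supply, in part through mTORC1, which releases the cap-binding protein eIF4E from its 4E-BP inhibitors.

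No translation factor passed the edgeR test between genotypes with genotype as the only term, and neither did any other gene. Small fold changes were about as frequent among the 61 factors, of which 55 averaged at least 20 CPM, as among all genes of that level. By edgeR's quasi-likelihood test with Benjamini-Hochberg adjustment, 0 of 61 factors had an adjusted p under 0.05, against 0% of all tested genes. With genotype as the only term, DESeq2 also called 0 factors, against 0.383% of all tested genes, and limma-voom 0, against 0%. At an unadjusted p under 0.05 there were 4 factors (6.56%, against 5.82% of all tested genes). Eif3f and Eif3j1 had a lower mean in KO, against 3.1% of all tested genes, and Eef2 and Eif2d a higher one, against 2.72%. Without WT replicate 1 that count was 1, Eif4g2. The absolute log2 fold change was under 0.2 for 46 factors (75.4%, against 51.4% of all tested genes and 71.8% of genes averaging at least 20 CPM). It reached 0.5 for 5 factors (8.2%, against 20.1% of all tested genes). For that cutoff no share was taken over genes of at least 20 CPM. In bulk libraries fewer cells of a type and less RNA per cell cannot be told apart.

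The libraries of the genotypes did not overlap for 6 factors (9.84%, against 10.3% of all tested genes). Eif1a, Eif4a1, Eef1a1 and Eef2 were higher in all 3 KO libraries than in any WT library (5.6% of all tested genes), and Eif5 and Eif3j1 were lower (4.67% of all tested genes). A single factor, Eif3f, had an adjusted p under 0.05 in the authors' deposited table (1.64%, against 1.82% of its genes in either direction and 1.37% lower in KO). The mean was higher in KO for 41 factors and lower for 20, where 50.8% of all tested genes had a higher mean in KO. That split rested on single libraries: it was 33 higher and 28 lower without KO replicate 2, and 29 higher and 32 lower without WT replicate 1. The median log2 fold change of the factors was 0.04, beside 0.00 for all tested genes.

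**Figure D1:**
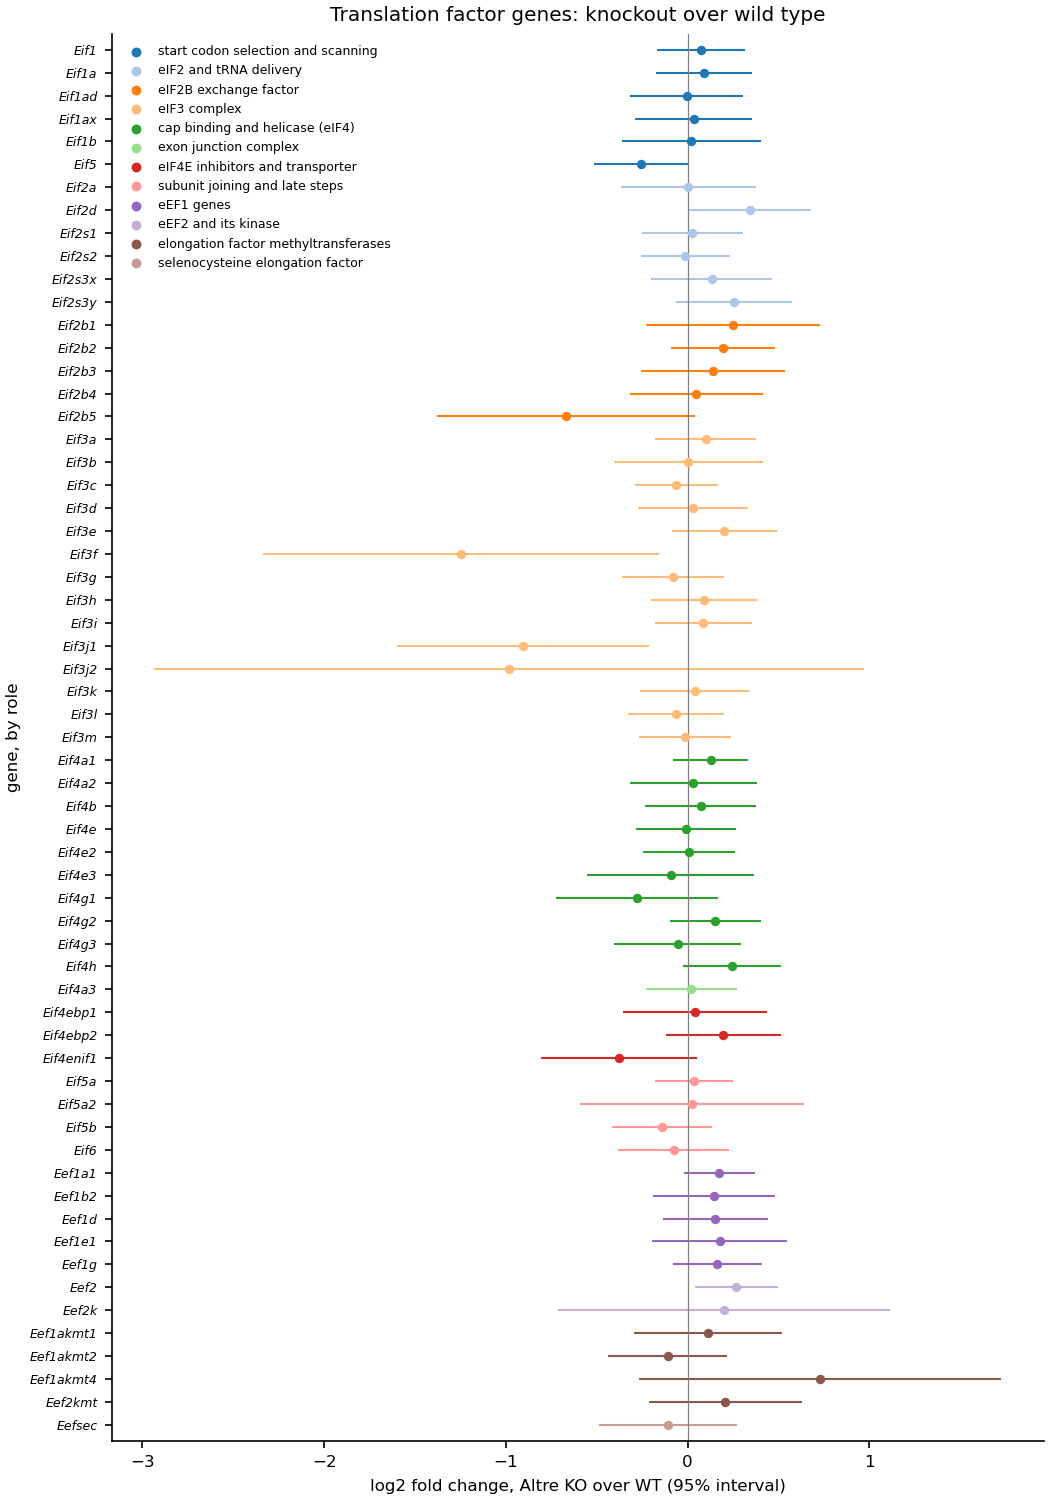
Log2 fold change of each of the 61 translation factor genes, Altre KO over WT, from edgeR with its 95% interval, coloured by role and grouped from initiation at the top to elongation at the bottom. Most points lie within 0.2 of 0, while Eif3f (-1.25), Eif3j2 (-0.98) and Eif3j1 (-0.90) lie farthest to the left and Eef1akmt4 (0.73) farthest to the right.

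Eif3f had the lowest log2 fold change of the eIF3 subunits and the widest spread between libraries, and its difference did not pass the test with genotype as the only term. It encodes a core subunit that carries an MPN domain, a fold it shares with the subunit encoded by Eif3h. Eif3f (ENSMUSG00000031029.6) lies on the plus strand of chromosome 7 from 108934417 to 108942951 in GRCm38, and its representative transcript has 8 exons and 2514 bases. Its level was 227, 72.0 and 70.2 CPM in KO replicates 1, 2 and 3, against 461, 266 and 150 CPM in WT replicates 1, 2 and 3. The counts behind these levels were 5760, 1806 and 2180 in KO, against 13354, 6718 and 4049 in WT. The groups overlapped, because KO replicate 1 lay above WT replicate 3, while KO replicates 2 and 3 were the lowest of the 6 libraries.

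Eif3f averaged 123 ± 90.1 CPM in KO and 292 ± 157 CPM in WT (SD, n = 3 each). The log2 fold change was -1.25 ± 0.49 (SE), with a 95% interval from -2.34 to -0.16, and an adjusted p of 0.842 by edgeR's quasi-likelihood test with Benjamini-Hochberg adjustment. In the authors' deposited table the log2 fold change was -1.33 ± 0.16 (SE) with an adjusted p of 2.84e-14. Over 12789 genes the deposited test statistics correlated at 0.9998 with a DESeq2 fit that has a term for the replicate number, which called 2.1% of tested genes, and at 0.94 with a fit of genotype alone. Without KO replicate 1 the edgeR log2 fold change was -2.04 (adjusted p = 0.13), and without WT replicate 1 it was -0.76 (adjusted p = 0.943).

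The other core subunits differed little between the genotypes. Over the 11 subunits other than Eif3f, Eif3j1 and Eif3j2, the log2 fold change ran from -0.08 (Eif3g) to 0.20 (Eif3e), with a median of 0.03. The 95% intervals of these 11 subunits lay between -0.40 and 0.49. All 11 intervals lay above the point value of Eif3f, but its own interval, from -2.34 to -0.16, overlapped that range. Eif3f was lower than the median of the 13 other subunits by a log2 fold change difference of -1.25, which was -2.04 without KO replicate 1 and -0.71 without WT replicate 1, and which has no test of its own. The ratio of Eif3f CPM to the median CPM of the 11 core subunits was 0.827, 0.227 and 0.251 in KO libraries, against 1.74, 0.825 and 0.465 in WT libraries. It averaged 0.435 ± 0.34 in KO and 1.01 ± 0.656 in WT (SD, n = 3 each).

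The spread of Eif3f between libraries of 1 genotype was itself far from that of its partners. Its SD within genotypes was 0.89 on the log2 CPM scale, the highest of the 61 factors. The 11 core subunits had SDs from 0.0626 to 0.183, and the median factor of at least 20 CPM had 0.151. Among the 6386 tested genes averaging at least 20 CPM, whose median SD was 0.193, 21 genes (0.329%) had a larger SD than Eif3f. In any single library a core subunit lay between -0.25 and 0.29 of its own mean over the 6 libraries, whereas Eif3f lay between -1.24 and 1.47.

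**Figure D2:**
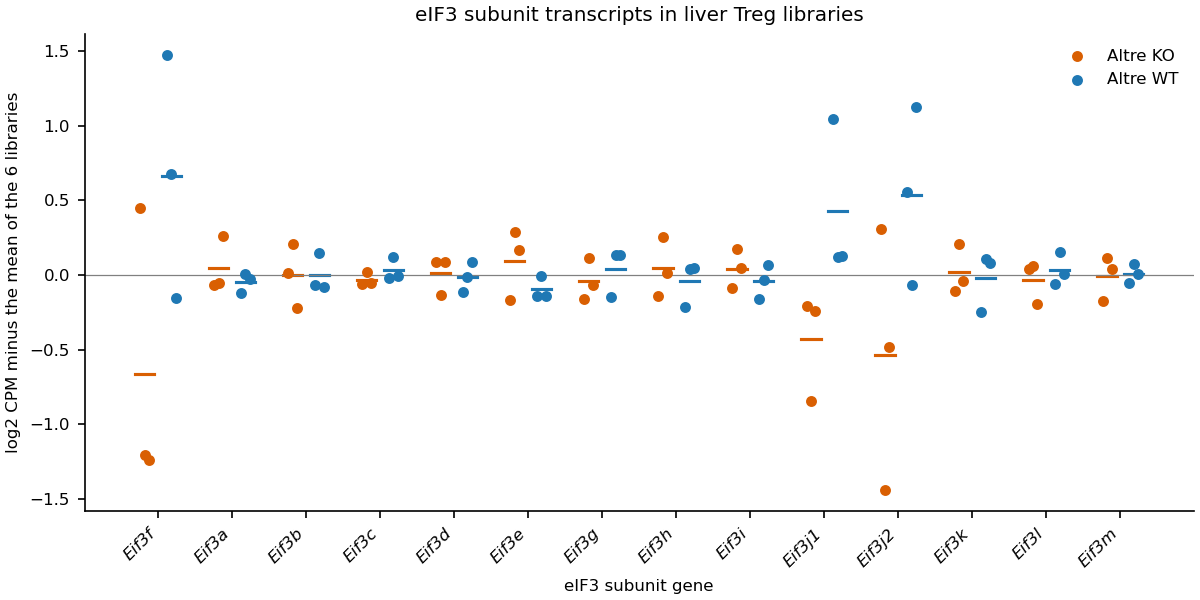
Level of each eIF3 subunit transcript in each library, as the log2 CPM difference from that gene's mean over all 6 libraries, with Altre KO libraries left of WT libraries and a bar at each group mean. Eif3f spans from -1.24 to 1.47, the 11 core subunits stay between -0.25 and 0.29, and the Eif3j genes also spread widely.

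The first exon of Eif3f holds an unusually GC-rich stretch of coding sequence, which is shown because it separates Eif3f from most other subunits. The 100-base window of highest GC content in the Eif3f transcript lies at chr7:108934615-108934714 on the plus strand. It is set beside the corresponding windows of Eif3b (chr5:140419378-140419477, plus strand) and of its MPN-domain partner Eif3h (chr15:51865356-51865455, minus strand). Eif3b is the subunit whose richest window comes closest in GC content to that of Eif3f. All 3 windows lie in exon 1 and within the coding sequence of the GENCODE M21 transcripts on GRCm38, are written 5′ to 3′ on the gene's strand, and have capitals where at least 8 G or C bases follow each other without A or T.
Eif3f: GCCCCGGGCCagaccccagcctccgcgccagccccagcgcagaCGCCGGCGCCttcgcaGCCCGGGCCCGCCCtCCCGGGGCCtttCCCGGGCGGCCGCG
Eif3b: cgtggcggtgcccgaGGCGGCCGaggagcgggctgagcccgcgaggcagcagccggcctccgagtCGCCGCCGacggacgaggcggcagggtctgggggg
Eif3h: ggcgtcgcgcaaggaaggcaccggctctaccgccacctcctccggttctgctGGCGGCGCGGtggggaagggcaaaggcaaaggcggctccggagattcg
The Eif3f window is 85% G or C with 5 such runs, the longest of 14 bases. The Eif3b window is 81% G or C with 2 runs, and the Eif3h window 70% with 1 run of 10 bases.

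Among the core subunits by structure, Eif3a and Eif3c, the large scaffold subunits, had log2 fold changes of 0.10 ± 0.12 and -0.06 ± 0.10 (SE). Eif3a had 207, 209 and 259 CPM in KO, against 199, 218 and 213 CPM in WT, and Eif3c had 349, 368 and 350 CPM in KO, against 358, 395 and 362 CPM in WT. Eif3e, a scaffold subunit with a PCI domain, had the highest value of the core at 0.20 ± 0.13 (adjusted p = 0.938, edgeR), with 457, 626 and 575 CPM in KO, against 465, 511 and 464 CPM in WT. Eif3k, Eif3l and Eif3m, which encode subunits that also have a PCI domain, had values of 0.04, -0.06 and -0.01.

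Eif3h, the other MPN-domain subunit, had 541, 713 and 604 CPM in KO, against 514, 613 and 617 CPM in WT. Its log2 fold change was 0.09 ± 0.13 (SE), with a 95% interval from -0.20 to 0.38. Eif3b, Eif3g and Eif3i, which form the mobile module with RNA-binding and WD40 folds, had values of 0.00, -0.08 and 0.09. Eif3d, the subunit that can bind the cap of selected mRNAs, had 81.0 ± 6.93 CPM in KO and 79.3 ± 5.44 CPM in WT (SD, n = 3 each).

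Eif3j1, which encodes the loosely bound subunit eIF3j that sits near the decoding site, had the smallest p of the 61 factors. Its level was 13.6, 8.73 and 13.3 CPM in KO, against 32.5, 17.1 and 17.1 CPM in WT. Every KO library lay below every WT library, and WT replicate 1 was the highest. The log2 fold change was -0.90 ± 0.31 (SE; adjusted p = 0.842, edgeR), and -0.52 without WT replicate 1. In the authors' deposited table it was -0.87 with an adjusted p of 0.096. Eif3j1 (chromosome 2, 122028546 to 122056598, plus strand) shares exon sequence with Spg11 on the opposite strand, and no source used here says whether counting used strand. Its single-exon relative Eif3j2 averaged 0.419 ± 0.237 CPM in KO and 0.83 ± 0.335 CPM in WT (SD, n = 3 each), and reads of these similar genes may not have been separated.

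The subunits of eIF2, which brings the initiator tRNA, had log2 fold changes from -0.01 to 0.26. Eif2s1, the alpha subunit whose phosphorylation limits initiation under stress, averaged 256 ± 25.9 CPM in KO and 251 ± 23.9 CPM in WT (SD, n = 3 each), and Eif2s2, the beta subunit, had a log2 fold change of -0.01. The gamma subunit is encoded on both sex chromosomes. Eif2s3y, the copy on chromosome Y, had 115, 119 and 89.6 CPM in KO, against 88.2, 88.3 and 94.4 CPM in WT, and its log2 fold change was 0.26 ± 0.14 (SE; adjusted p = 0.906, edgeR). Eif2s3x, the copy on chromosome X, had 51.8, 49.9 and 51.1 CPM in KO, against 50.8, 47.5 and 41.0 CPM in WT. The Y copy made up 80.6% ± 2.57 of the gamma subunit's CPM per kilobase in KO and 79.4% ± 2.37 in WT (SD, n = 3 each).

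Eif2a, a separate factor that can also bind the initiator tRNA, had a value of 0.00. Eif2d encodes a factor that can place tRNA on the small subunit without eIF2 and also acts in ribosome recycling. Its level was 69.8, 81.6 and 89.9 CPM in KO, against 59.7, 70.3 and 60.3 CPM in WT. The highest WT library lay just above the lowest KO library, so the groups overlapped. The log2 fold change was 0.34 ± 0.15 (SE; adjusted p = 0.849, edgeR). Eif2d shares exon sequence with Rassf5 on the opposite strand. Among the 5 subunits of eIF2B, which recharges eIF2 with GTP, 4 had a higher mean in KO, with log2 fold changes from 0.05 to 0.25, and Eif2b5, the catalytic subunit, a lower one. Eif2b5, named here after its value was seen, had 9.43, 7.74 and 13.3 CPM in KO, against 23.0, 12.7 and 12.8 CPM in WT, with a log2 fold change of -0.67 ± 0.32 (SE; adjusted p = 0.868, edgeR), and -0.32 without WT replicate 1.

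Of the 6 genes grouped under scanning and start codon choice, 4 had a higher mean in KO, and they ran from -0.25 to 0.09 in log2 fold change. Eif1, which keeps the scanning complex open until a start codon is found, had 903, 973 and 939 CPM in KO, against 794, 890 and 990 CPM in WT. Eif5, which triggers GTP hydrolysis by eIF2 at the start codon, was chosen after its value was seen because its groups did not overlap. It had 426, 548 and 471 CPM in KO, against 554, 590 and 580 CPM in WT. Its log2 fold change was -0.25 ± 0.12 (SE; adjusted p = 0.865, edgeR).

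The 10 genes of the eIF4 group ran from -0.28 to 0.24 in log2 fold change, with 6 higher and 4 lower in KO. Eif4e, the cap-binding protein, had 176, 183 and 208 CPM in KO, against 186, 176 and 209 CPM in WT, with a log2 fold change of -0.01 and a 95% interval from -0.28 to 0.26. Eif4a1, the helicase that unwinds the mRNA leader, had 978, 1012 and 1051 CPM in KO, against 902, 967 and 912 CPM in WT. The groups did not overlap, and the log2 fold change was 0.13 ± 0.09 (SE; adjusted p = 0.938, edgeR). The inhibitors Eif4ebp1 and Eif4ebp2 averaged 33.7 ± 1.53 and 60.7 ± 3.56 CPM in KO, and 32.7 ± 5.41 and 53.0 ± 4.48 CPM in WT (SD, n = 3 each), with log2 fold changes of 0.04 and 0.20. Eif4a3, the helicase of the exon junction complex, had a value of 0.02. Eif4enif1, the transporter of eIF4E, averaged 89.1 ± 17.9 CPM in KO and 115 ± 23.9 CPM in WT (SD, n = 3 each), a log2 fold change of -0.37 ± 0.19 (SE; adjusted p = 0.89, edgeR). Eif5a, which helps ribosomes through stretches such as proline runs and is the most abundant of the late factors, averaged 1716 ± 58.3 CPM in KO and 1673 ± 133 CPM in WT (SD, n = 3 each). The 4 genes of subunit joining and late steps ran from -0.14 to 0.04.

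None of the elongation factor genes passed the test. All 6 genes named Eef1 or Eef2 after the factors themselves (Eef1a1, Eef1b2, Eef1d, Eef1e1, Eef1g and Eef2) had a higher mean in KO, with log2 fold changes from 0.15 to 0.27 and a median of 0.17. When KO replicate 2 was left out, 5 of the 6 were higher and the median was 0.08. Without WT replicate 1 all 6 stayed higher in KO, with a median of 0.12. Their summed level was 8221, 9509 and 8634 CPM in KO, against 7473, 7896 and 7894 CPM in WT. Most of this sum was Eef1a1. By the sum, KO replicate 2 was the highest library and WT replicate 1 the lowest, the same libraries on which the split of all 61 factors rested.

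Eef2, the translocase that moves the ribosome along the mRNA, had 963, 845 and 861 CPM in KO, against 702, 730 and 783 CPM in WT. All KO libraries lay above all WT libraries. Eef2 (chromosome 10, 81176631 to 81182498, plus strand) averaged 889 ± 64.4 CPM in KO and 738 ± 41.1 CPM in WT (SD, n = 3 each), a log2 fold change of 0.27 ± 0.10 (SE; adjusted p = 0.842, edgeR). In the authors' deposited table its log2 fold change was 0.26 with an adjusted p of 0.211. Eef1a1, which delivers aminoacyl-tRNAs and was the most abundant of all the factors, had 5988, 7019 and 6360 CPM in KO, against 5573, 5800 and 5792 CPM in WT. Its groups did not overlap either, and the log2 fold change was 0.17 ± 0.09 (SE; adjusted p = 0.882, edgeR). The guanine exchange subunits Eef1b2 and Eef1d and the scaffold subunit Eef1g had values of 0.15, 0.15 and 0.16 with overlapping groups, and Eef1e1, which is also a partner of the tRNA synthetase complex, 0.18. Eef1a1 has many processed pseudogenes, and how reads matching several places were counted is not known from the labels.

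**Figure D3:**
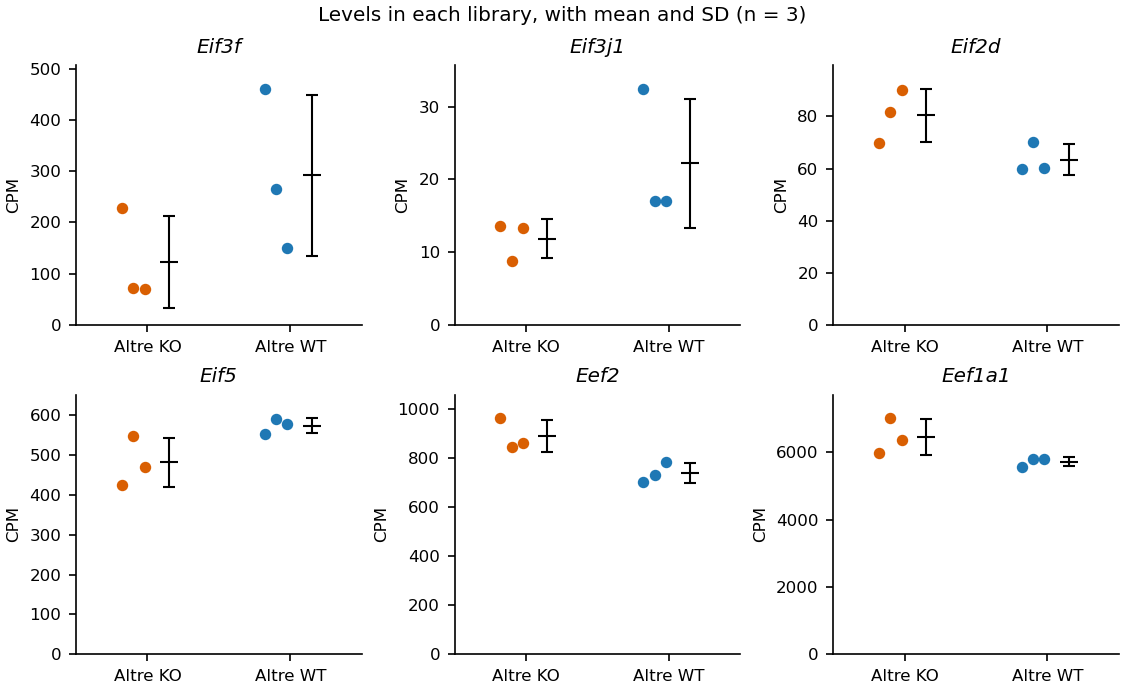
CPM of Eif3f, Eif3j1, Eif2d, Eif5, Eef2 and Eef1a1 in each library (points), with the mean and SD of each genotype (bars, n = 3), Altre KO left of WT. Eif3f ranges from 70.2 to 227 in KO and from 150 to 461 in WT with overlap, while for Eef2 the KO points (845 to 963) all lie above the WT points (702 to 783).

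Accessory genes of elongation were also measured. Eef2k, the kinase that inhibits eEF2, averaged 8.43 ± 3.03 CPM in KO and 7.34 ± 3.53 CPM in WT (SD, n = 3 each). The 4 methyltransferase genes that modify eEF1A or eEF2 ran from -0.11 to 0.73 in log2 fold change, with 3 higher in KO. The highest, Eef1akmt4, rested on 4.56 ± 1.12 CPM in KO and 2.75 ± 1.1 CPM in WT (SD, n = 3 each), and its 95% interval ran from -0.27 to 1.73. Eefsec, which delivers selenocysteine, had a value of -0.11.

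Levels per kilobase of transcript, which allow genes to be compared with each other, spanned a wide range. Eef1a1 came first with 3598 ± 291 CPM per kilobase in KO and 3189 ± 72.0 in WT (SD, n = 3 each). Next came Eif5a (1194 ± 40.5 in KO and 1164 ± 92.4 in WT) and Eif1 (710 ± 26.7 in KO and 674 ± 74.0 in WT). Eif3k (602 ± 71.2 in KO and 586 ± 77.3 in WT) and Eif4a1 (571 ± 20.6 in KO and 523 ± 19.8 in WT) followed, and these last neighbours did not differ beyond their spread. Eif3f, at 49.0 ± 35.8 CPM per kilobase in KO and 116 ± 62.5 in WT, ranked 24 of 61 by its mean over the 6 libraries, and the lowest was Eif3j2. Among the 14 eIF3 subunits the level per kilobase of Eif3f ranked 9, 11 and 11 in KO libraries, against 6, 9 and 9 in WT libraries. The representative transcript lengths used here may differ from those expressed, and Eif4g2 in particular was given a long isoform.

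**Figure D4:**
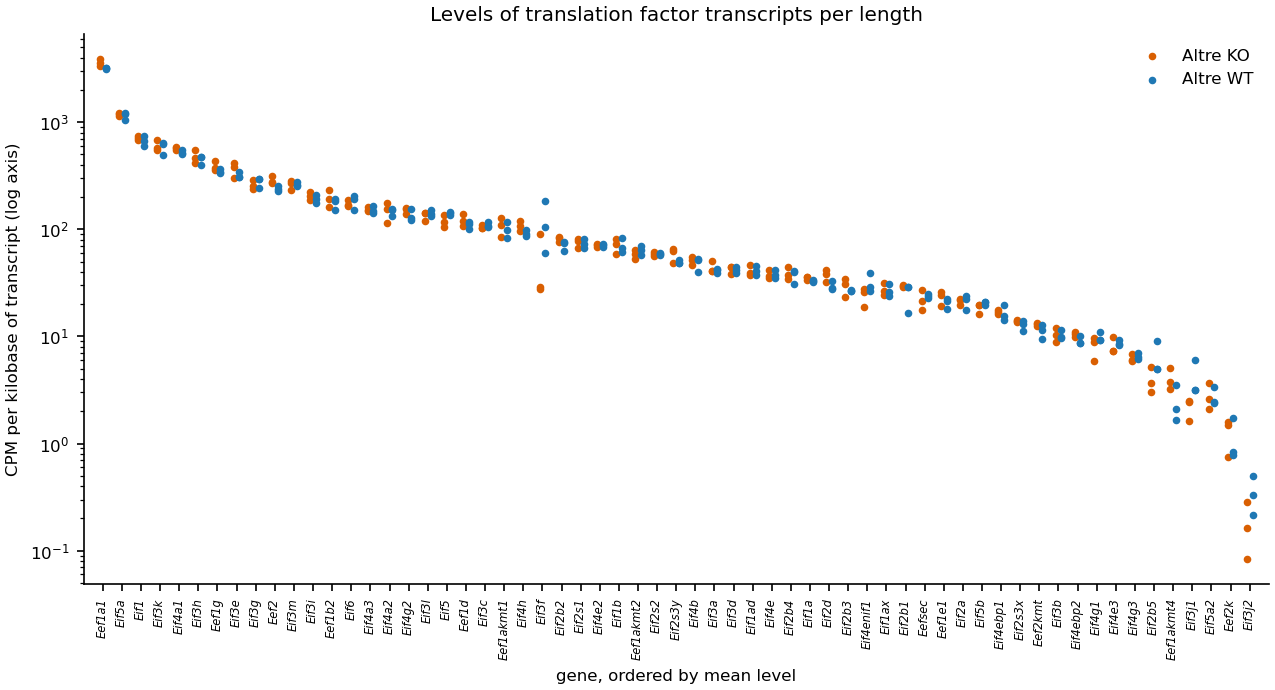
CPM per kilobase of representative transcript (log axis) of the 61 translation factor genes in each library, ordered by mean level, Altre KO points left of WT points. Levels run from Eef1a1 (3598 in KO and 3189 in WT) down to Eif3j2 (0.176 in KO and 0.349 in WT), and the genotypes lie apart most for Eif3f, Eif3j1 and Eif3j2.

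Some factors are encoded by pairs of related genes, and the balance within pairs was compared. Eif4a1 made up 79.5% ± 2.97 of the CPM per kilobase of Eif4a1 and Eif4a2 in KO and 78.2% ± 1.08 in WT (SD, n = 3 each). Eif1 made up 90.9% ± 1.05 of Eif1 and Eif1b in KO and 90.6% ± 0.492 in WT. Eif5a made up 99.8% of Eif5a and Eif5a2 in both genotypes, and Eif4ebp1 61.6% ± 0.446 of both inhibitor transcripts in KO and 63.9% ± 4.42 in WT. These are all shares of CPM per kilobase, and none of these pairs differed between genotypes by more than the spread between replicates.

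The genotype difference varied with transcript GC content over all genes, without a steady trend. The Eif3f transcript's richest 100-base window, at 85% G or C, was matched or exceeded by 930 of 12668 tested genes with a transcript (7.34%). The median window was 67% in the 11 core eIF3 subunits, 70% in the 61 factors and 72% in all tested genes. The median log2 fold change of all tested genes was -0.03 where the window was under 60%, 0.04 from 70% to under 75%, -0.12 from 80% to under 85%, -0.04 from 85% to under 90%, where Eif3f lies, and -0.01 from 90% upwards (135 genes). Among genes with a window of at least 80%, 7.74% had an unadjusted edgeR p under 0.05 and a lower mean in KO. Below 80% this share was 1.85%. It was 0.634% from 70% to under 75%, 10.1% from 80% to under 85%, 3.90% from 85% to under 90% and 0% from 90% upwards. Shares with a higher mean in KO were not taken by window. Of the translation factors, 9 reached 80% (Eif1, Eif1b, Eif2b5, Eif3b, Eif3f, Eif4ebp2, Eif4g3, Eif5 and Eif5a2). Their median was 0.00, and they ran from -1.25 (Eif3f) to 0.20 (Eif4ebp2). With a correction for window GC in each library, the log2 fold change of Eif3f was -1.11 (adjusted p = 0.71, edgeR), that of Eif3j1 -0.92, that of Eif5 -0.08 and the median of the 6 eEF1 and eEF2 genes 0.12. Without the correction these values were -1.25, -0.90, -0.25 and 0.17. The correction follows the trend over all genes with window GC in each library, and an effect of GC on a single gene was not tested.

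**Figure D5:**
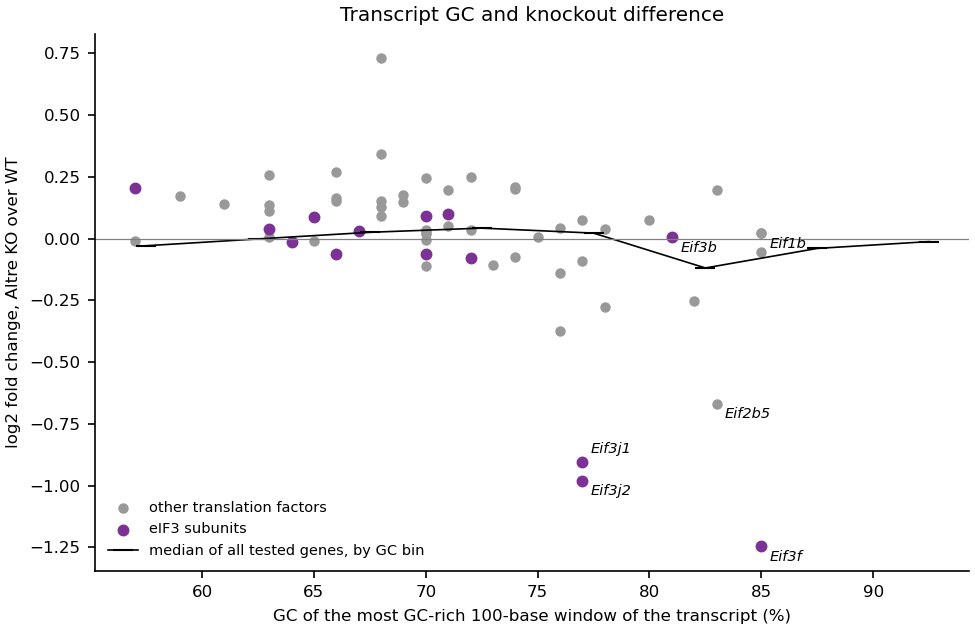
Log2 fold change, Altre KO over WT, of each translation factor gene against the GC content (%) of the most GC-rich 100-base window of its transcript, eIF3 subunits in purple and all other factors in grey, with the median of all tested genes in GC bins as a black line. The black line dips to -0.12 between 80% and 85%, and Eif3f at 85% lies at -1.25. Eif2b5 at 83% lies at -0.67 and Eif5 at 82% at -0.25, while Eif3b at 81% and Eif1b at 85% lie near 0.

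Genes that work with the translation factors were described in 5 lists, and as over all tested genes (0%), 0 of their genes passed an adjusted p of 0.05 by edgeR. Of the 22 cytosolic aminoacyl-tRNA synthetase genes and their scaffold partners, 14 had a higher mean in KO and 8 a lower one. Wars, the tryptophanyl-tRNA synthetase, had the smallest p of this list, with 93.3, 74.9 and 83.1 CPM in KO, against 79.0, 62.3 and 61.1 CPM in WT (log2 fold change 0.31, adjusted p = 0.882, edgeR). Aimp2, a scaffold of the synthetase complex, had a value of 0.33. Of 8 genes of termination and ribosome recycling, 4 had a higher and 4 a lower mean, and the release factors Etf1 and Gspt1 had values of -0.18 and -0.38. Of 19 other initiation cofactors, 10 had a higher and 9 a lower mean. Pabpc1, the poly(A)-binding protein, and its inhibitor Paip2b had values of 0.17 and 0.27.

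The signalling lists that act on translation split evenly by the direction of the mean. Of 16 tested genes of the integrated stress response, which acts through eIF2 phosphorylation, 8 had a higher and 8 a lower mean. Their log2 fold changes ran from -0.55 to 1.79, with a median of -0.02. An unadjusted p under 0.05 by edgeR was reached by 2 of them, against 5.82% of all tested genes. The genes of this list named next, picked by p or value, all had a higher mean in KO and do not stand for the list. Sesn2, a stress-induced inhibitor of mTORC1, had 9.54, 3.19 and 10.2 CPM in KO, against 3.48, 0.594 and 2.55 CPM in WT, with overlapping groups. Its log2 fold change was 1.79 ± 0.64 (SE; adjusted p = 0.842, edgeR), and the value in the authors' deposited table was 1.93 with an adjusted p of 0.00825. Ppp1r15a, the stress-induced partner of the same phosphatase as Ppp1r15b and chosen after its value was seen, had 63.1, 70.7 and 300 CPM in KO, against 51.9, 46.7 and 99.7 CPM in WT. Its log2 fold change was 1.13 ± 0.55 (SE; adjusted p = 0.878, edgeR) and 0.02 without KO replicate 3, and in the authors' deposited table it was 0.82 with an adjusted p of 0.00605. Ppp1r15b, a subunit of the phosphatase that reverses eIF2 phosphorylation, had 44.9 ± 8.27 CPM in KO and 32.5 ± 0.738 CPM in WT (SD, n = 3 each), with no overlap and a log2 fold change of 0.47 (adjusted p = 0.842, edgeR). Of 14 tested genes around mTORC1 and S6 kinase, 7 had a higher and 7 a lower mean. Here 3 genes, all with a higher mean in KO, had an unadjusted p under 0.05 by edgeR, against 5.82% of all tested genes. Mtor, the kinase itself, had 16.5, 16.5 and 21.1 CPM in KO, against 10.9, 9.42 and 15.3 CPM in WT (log2 fold change 0.60, adjusted p = 0.845, edgeR). Tsc1, which restrains it, had 23.1 ± 3.97 CPM in KO and 14.3 ± 3.45 CPM in WT (SD, n = 3 each; log2 fold change 0.69, adjusted p = 0.842, edgeR). For Mtor and Tsc1, as for Ppp1r15b, every KO library lay above every WT library (5.6% of all tested genes).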

How the data were processed

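The authors deposited whole-number read counts per gene for 6 libraries, made with a SMARTER mRNA-Seq kit per the labels' protocols. Further deposited columns, per the file headers, are a mean normalized signal over libraries, a log2 fold change with standard error, a Wald statistic (a score) and a p-value with its adjustment. Their sign was set so that positive means higher in KO. STAR, cutadapt, DESeq2 and mm10 are named in the submitters' processing notes. How reads were counted, on which annotation and strand, is not given in the sources used here. The table's lowest mean normalized value is 5.96, and unlisted genes were not analysed here. In 18 rows the gene name had become a date, and these rows (0.294% to 0.308% of counts) were left out.

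The test was edgeR 4.0.16 under R 4.3.3 (TMM, filterByExpr, quasi-likelihood F test, genotype only), adjusted with Benjamini-Hochberg over 12789 genes. DESeq2 1.42.0, limma 3.58.1 (voom), a replicate block, a correction for window GC, no count filter, DESeq2 size factors and leaving out each library were alternatives. CPM values use TMM-scaled library sizes, and log2 CPM has a prior count of 2. Transcripts came from GENCODE M21 on GRCm38, the assembly of mm10; 13469 of 13605 names matched. Exons of 14 of the 61 factors overlap those of another listed gene. Replicates were not copies of each other (chi-square of 40.8 to 74.3 per gene), so each library counted as 1 replicate. On simulated counts of 12427 genes for this comparison, 2.99% of 1.5-fold, 28.4% of 2-fold and 73.1% of 4-fold changes were called, with 8 false calls.

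The translation factors, gene lists and tests were chosen with earlier results of these data known. The genes named are all eIF3 subunits, factors with an unadjusted edgeR p or a deposited adjusted p under 0.05, the 5 of highest CPM per kilobase, a short set named always (Eif2s3x, Eif2s3y, Eif4ebp1, Eif4ebp2, Eef1a1, Eef2, Eif4e, Eif4a1, Eif5a), up to 2 genes of smallest p per pathway list, and Foxp3; other genes were named by role or value after their values were seen. The list of B and plasma cell markers is not reported in full here.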

Additional observations from a re-analysis of the deposited data

How the results depend on the processing

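The 56 genes followed here are the named genes other than Eif3f and other than the cell type markers except Foxp3 (44 are translation factors). For them, 768 values under the alternatives stayed within 1 SD of the spread between replicates and 16 did not. Of these, 15 came with the GC correction, Eif5 among them (-0.08), and 1 without KO replicate 3 (Ppp1r15a). An adjusted p under 0.05 was reached 2 times, by Sesn2 (0.00645) and Ppp1r15a (0.00553) in DESeq2 with the replicate block. The count of genes called over all genes was 0 by edgeR, 49 by DESeq2, and 0 to 1 when 1 library was left out (1 without KO replicate 1); the count of factors called stayed at 0 in all of these. Leaving out 1 library gave Eif3f log2 fold changes from -2.04 to -0.76, a median of the other eIF3 subunits from -0.09 to 0.02, a difference between them from -2.04 to -0.71, and a median of all factors from -0.0019 to 0.081.

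Replicate numbers do not pair the samples by the labels, and the deviations of same-numbered KO and WT libraries correlated at 0.108, 0.0823 and 0.0239, although each library correlated best with its own number, a hint from the data and not the design. With a replicate block edgeR called 16 genes (0.125%), of which 1 was a translation factor, Eif3f (-1.33, adjusted p = 0.0451). DESeq2 with the replicate block called 269 genes and 1 factor, Eif3f (-1.33, adjusted p = 3.17e-14), and the GC correction with replicate block 20 genes (0.156%) and 1 factor, Eif3f (-1.18, adjusted p = 0.0494). With 3 libraries per genotype, few changes of 1.5-fold could be called, so a factor without a call is not shown to be unchanged.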
